A study of Mus musculus with 8 samples.

Results

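Open chromatin regions that were listed in both Dek serine mutant libraries (4S-A 1 and 4S-A 2) and in none of the Dek knockout (KO 1 to 3) or control (FL 1 to 3) libraries are described here. They were chosen by the presence and absence of peaks: they were found by merging the 8 deposited peak lists wherever peaks shared at least 1 bp on autosomes 1 to 19 and X, and by keeping the regions with a peak in 4S-A 1 and 4S-A 2 alone. Of 138385 merged regions, 84377 were held by both 4S-A libraries, and 8230 of these met the rule, which is 9.75% of them. These 8230 are called 4S-A-only regions. Their existence, number and strength therefore are a description and carry no test. A region without a listed peak in a library is one that the authors' peak caller did not report there, which is not the same as closed chromatin.

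The study profiled leukemic granulocyte-macrophage progenitors (L-GMPs) from bone marrow of mice with acute myeloid leukemia driven by MLL-AF9, sorted as cells that lack lineage markers and Sca-1 and carry c-Kit, CD16/32 and CD34. Both 4S-A libraries came from cells with the genotype Dek-Ser306A/Ser308A/Ser311A/Ser312A, in which alanine replaces 4 serines of DEK. KO 3 came from Dek fl/fl;Tie2-Cre mice, and KO 1 and KO 2 from Dek fl/fl,MX1-Cre mice. FL 3 was Dek+/+, and FL 1 and FL 2 were Dek fl/fl without a named Cre, while all 8 libraries share the MLL-AF9 oncogene. The labels state neither the zygosity of the 4S-A allele nor whether that line also carries a Cre, give no age, and do not say whether replicates are separate animals. Tie2-Cre acts in endothelium and the blood lineage that arises from it, whereas Mx1-Cre is switched on by interferon, so the knockout libraries also differ in where and when Dek was deleted. The design text names Dek+/+, Dek fl/fl;Tie2-Cre and 4S-A animals together, so 4S-A 1, 4S-A 2, KO 3 and FL 3 are called the Tie2-Cre set and the other 4 libraries the Mx1-Cre set.

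ATAC-seq uses a transposase to insert sequencing adapters into accessible DNA, and a peak marks a stretch where insertions pile up, usually a promoter or an enhancer free of nucleosomes. DEK is an abundant chromatin protein that binds DNA and histones, and phosphorylation of its C-terminal serines weakens its hold on DNA. The series title connects phosphorylated DEK with leukemia stem cells and with the TALE homeodomain factor PBX3.

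List length, the only measure of depth that the lists give, differed between the groups. The 4S-A libraries held 104605 and 94725 peaks, the KO libraries 56245, 74026 and 93041, and the FL libraries 51510, 54887 and 91586. KO 3 and FL 3 were close in length to the 4S-A lists and the Mx1-Cre set was shorter. The longest lists are those of the 4S-A group, so genotype and list length cannot be told apart for these regions. All 8 progenitor marker genes (Kit, Cd34, Fcgr3, Fcgr2b, Mpo, Elane, Prtn3 and Cebpa) had a peak at a gene end in both 4S-A libraries, against 7, 8 and 8 of them in the KO libraries and 7, 7 and 7 in the FL libraries. Of 5 endothelial markers, 3 and 3 had such a peak in 4S-A 1 and 4S-A 2, against 2, 3 and 1 in KO 1 to 3 and 2, 2 and 1 in FL 1 to 3, with Emcn at 0 in every library. Tek was marked in both 4S-A libraries and in no KO or FL library. Its gene-end regions are 4S-A-only regions, so its part of this difference follows from the rule. Of 4 stromal markers, 2 and 2 had one in the 4S-A libraries, against 1, 2 and 2 in KO and 1, 2 and 2 in FL. All 3 monocyte and all 3 granulocyte markers had one in both 4S-A libraries, against 2, 3 and 3 monocyte and 1, 2 and 3 granulocyte markers in KO, and 2, 2 and 3 monocyte and 1, 1 and 3 granulocyte markers in FL. Among T and NK cell markers Cd3g and Ncr1 were at 0 in all 8 libraries, as was Pax5 among B cell markers, and the part of such cells in the regions below was not tested.

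The 4S-A-only regions that overlapped annotated promoters show what sequence they cover. Promoter windows of 300 bases (250 before to 50 after a start) came from RefSeq on GRCm38.p6. Of 21045 windows of protein-coding genes, 102 (95 genes) were overlapped by a 4S-A-only region, against 11818 overlapped by another region of both 4S-A libraries. The windows of 4 of the strongest such regions and of the matrix gene Tnc are printed 5′ to 3′ on the strand of the gene, with each CG dinucleotide in capitals.
Ankef1 (chr2:136532071-136532370, plus strand): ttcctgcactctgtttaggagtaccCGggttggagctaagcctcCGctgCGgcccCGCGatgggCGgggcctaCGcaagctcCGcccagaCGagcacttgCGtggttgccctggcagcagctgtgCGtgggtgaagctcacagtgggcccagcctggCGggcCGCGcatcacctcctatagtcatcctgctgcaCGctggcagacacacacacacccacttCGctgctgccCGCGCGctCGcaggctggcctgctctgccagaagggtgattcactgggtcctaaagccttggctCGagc
Zfp345 (chr2:150485014-150485313, minus strand): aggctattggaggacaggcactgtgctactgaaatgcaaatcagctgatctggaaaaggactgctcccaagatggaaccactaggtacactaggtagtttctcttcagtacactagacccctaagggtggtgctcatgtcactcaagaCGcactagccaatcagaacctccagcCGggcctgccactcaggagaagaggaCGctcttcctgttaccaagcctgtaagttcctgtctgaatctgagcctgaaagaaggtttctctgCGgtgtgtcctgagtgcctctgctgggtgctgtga
Tceal8 (chrX:136172202-136172501, minus strand): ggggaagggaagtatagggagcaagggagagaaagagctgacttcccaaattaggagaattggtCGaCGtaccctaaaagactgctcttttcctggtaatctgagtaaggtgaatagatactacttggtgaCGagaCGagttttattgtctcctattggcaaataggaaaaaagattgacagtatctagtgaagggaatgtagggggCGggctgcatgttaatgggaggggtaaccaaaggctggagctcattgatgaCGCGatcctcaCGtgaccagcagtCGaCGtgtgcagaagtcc
Ppp1r14c (chr10:3365900-3366199, plus strand): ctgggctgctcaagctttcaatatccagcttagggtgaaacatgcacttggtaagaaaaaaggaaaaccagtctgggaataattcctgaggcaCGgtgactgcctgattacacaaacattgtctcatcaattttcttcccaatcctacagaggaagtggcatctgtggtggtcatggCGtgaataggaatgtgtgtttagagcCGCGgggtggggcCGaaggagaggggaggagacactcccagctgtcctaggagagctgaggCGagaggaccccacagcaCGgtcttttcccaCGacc
Tnc (chr4:64046887-64047186, minus strand): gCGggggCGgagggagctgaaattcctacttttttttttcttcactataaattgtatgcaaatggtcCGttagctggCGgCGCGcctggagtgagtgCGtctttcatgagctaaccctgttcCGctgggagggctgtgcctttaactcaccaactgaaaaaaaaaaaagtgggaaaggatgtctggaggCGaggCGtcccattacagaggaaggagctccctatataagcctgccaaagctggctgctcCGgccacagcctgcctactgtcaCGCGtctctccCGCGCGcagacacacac

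These windows differed among themselves in base composition. The Ankef1 window held 21 CG dinucleotides at a GC content of 65.7%, the Tnc window 16 at 54.0%, the Tceal8 window 10 at 47.7%, the Ppp1r14c window 8 at 52.0% and the Zfp345 window 4 at 52.0%. Over the 102 windows overlapped by 4S-A-only regions the median was 7 CG dinucleotides (quartiles 4.25 and 14) and 53.5% GC. The windows under other regions of both 4S-A libraries had a median of 22 CG (quartiles 14 and 30) and 62.0% GC, and all windows of protein-coding genes had medians of 13 and 56.7%. The promoters under 4S-A-only regions were thus poorer in CG than those under the other regions and, at the median, than promoters in general.

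Short motifs were searched in the same windows on both strands, as exact letters. The ETS core CCGGAA, typical of CpG-rich housekeeping promoters, was in 7 of 102 windows (6.86%, 95% Clopper-Pearson interval 2.80 to 13.6%) under 4S-A-only regions, against 28.9% of windows under other regions of both 4S-A libraries and 18.9% of all promoter windows. CCGGAA itself holds a CG, so this share is not separate from the CG counts above. The AP-1 site TGACTCA, bound by FOS and JUN dimers, was in 7 of 102 windows under 4S-A-only regions (6.86%), against 3.26% of windows under the other regions and 4.69% of all windows. The PBX-HOX site TGATTNAT was in 4 of 102 windows (3.92%, interval 1.08 to 9.74%), against 0.982% under the other regions and 2.78% of all windows. RUNX TGTGGT was in 18.6%, the GATA motif, spelled AGATAA, in 9.80%, the E-box CACGTG in 8.82% and the TATA box, spelled TATAAA, in 12.7% of the windows under 4S-A-only regions, against 12.1%, 5.54%, 10.5% and 6.30% of windows under the other regions and 14.7%, 9.68%, 7.91% and 12.7% of all windows. Among the printed windows, that of Tceal8 held the E-box, that of Ppp1r14c the RUNX motif and that of Tnc the TATA box, and those of Ankef1 and Zfp345 held none of the motifs searched. A match to letters is not a bound site, and the intervals cover counting error only.

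Strength was expressed as the percentile of a peak's −log10 q within its own list, averaged over 4S-A 1 and 4S-A 2, so that 0 is the weakest and 100 the strongest peak. The 4S-A-only regions were mostly weak. Their median strength was 27.2, with quartiles of 15.8 and 42.7 and a highest value of 96.0, against a median of 60.0 over the 76147 other regions of both 4S-A libraries. In 4S-A 1 and 4S-A 2 their median fold enrichment over local background was 5.14 and 4.87, against 7.52 and 7.06 for the other regions. They were also narrower, with a median of 356 bp against 638 bp.

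**Figure D1:**
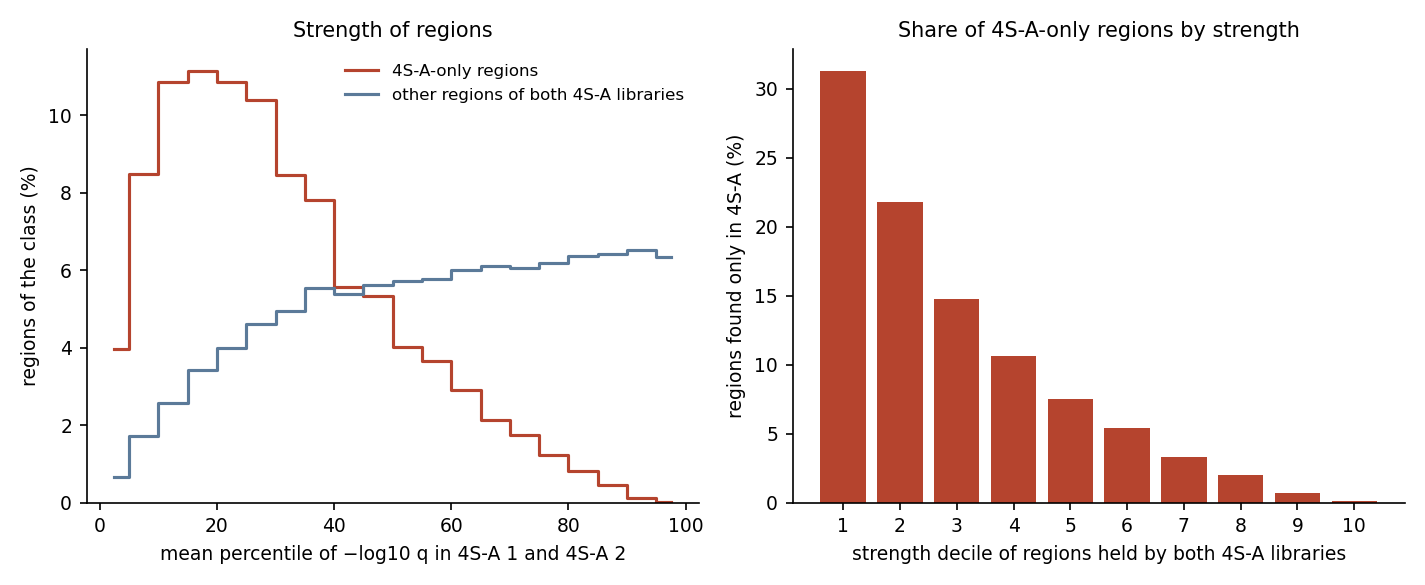
Left, percent of regions (y) in each 5-point step of strength (x, mean percentile of −log10 q in both 4S-A libraries) for the 4S-A-only regions and the other regions of both 4S-A libraries. Right, percent of regions that are 4S-A-only (y) in each strength decile (x, 1 weakest to 10 strongest): the share is 31.3% in the weakest decile and 0.107% in the strongest.

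The share of 4S-A-only regions fell at each step of strength, being 31.3% in the weakest decile, 7.49% in the fifth and 0.107% in the strongest. A minority was strong: 1120 regions (13.6%) reached percentile 50 in both 4S-A libraries, 179 reached 75, 9 reached 90 and 1 reached 95. Among all regions at or above percentile 50 in both libraries, 4S-A-only regions made up 2.53% of 44235. The 2 libraries ranked these regions alike: across the 8230 regions the percentiles in 4S-A 1 and 4S-A 2 had a Pearson r of 0.80 and a Spearman rho of 0.73, against 0.93 and 0.94 across the 76147 others. The regions share libraries and strength range, and these values only describe them. The summits in the 2 libraries lay a median of 20 bp apart, against 13 bp for the other regions.

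Strength also changed with the number of KO and FL libraries that held a region along with both 4S-A libraries. Regions held by no other library had a median strength of 27.2, those held by 1 other 28.3, those held by 3 others 43.7 and those held by all 6 others 81.6. Just outside the rule stood 6193 regions that a single KO or FL library shared with both 4S-A libraries. KO 3 was that library for 3385 of them and FL 3 for 2197, against 324 for KO 2, 105 for KO 1, 109 for FL 2 and 73 for FL 1. Their median percentile in that one library was 21.1 in KO 3 and 16.5 in FL 3, so the neighbours of the rule were low peaks there too. Regions listed by one 4S-A library and no other numbered 7710 for 4S-A 1, with a median percentile of 10.0, and 3518 for 4S-A 2, with a median of 8.49.

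Many 4S-A-only regions lay near peaks of the other libraries. The gap to the nearest KO or FL peak had a median of 3865 bp and a lowest value of 4 bp. It was at most 500 bp for 957 regions (11.6%), at most 10 kb for 73.1% and at most 50 kb for 93.0%. Of the regions of both 4S-A libraries, FL 3 lacked 13819 (16.4%), KO 3 lacked 12645 (15.0%), and both of these lacked 9140 (10.8%). Of those 9140, 8230 were absent from the 4 shorter Mx1-Cre lists as well. In the other direction, 467 of the 34313 regions held by all 6 KO and FL libraries (1.36%) had no peak in either 4S-A library.

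The 4S-A-only regions lay away from gene ends. Their summit was within 1 kb of either end of a protein-coding gene in 338 of 8230 regions (4.11%, interval 3.69 to 4.56%), against 17.0% of the other regions of both 4S-A libraries (interval 16.7 to 17.2%). Summits within 1 kb of an annotated transcription start made up 2.16%, against 13.5% of the other regions. Because strong peaks are often promoters, the classes were also set side by side within strength deciles, where the gene-end share of the 4S-A-only regions was the lower in 10 of 10 deciles. In the weakest decile it was 4.55% against 8.92%, in the fifth 5.06% against 8.44%, and in the eighth 2.92% against 15.7%. The 467 regions absent from both 4S-A libraries alone were also seldom at a gene end (4.07%), so a low gene-end share was not particular to the 4S-A-only regions.

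**Figure D2:**
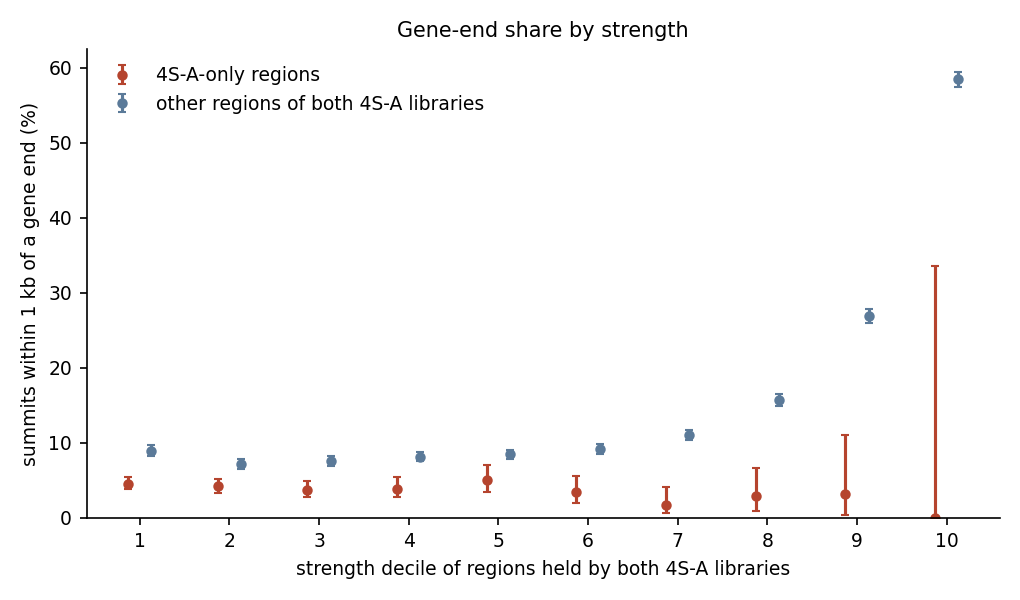
Percent of summits within 1 kb of a gene end (y) by strength decile (x, 1 weakest to 10 strongest) for the 4S-A-only regions and the other regions of both 4S-A libraries, with 95% Clopper-Pearson intervals as bars. In each decile the 4S-A-only point is the lower, and the strongest decile holds only 9 4S-A-only regions.

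They were instead found in long genes and in gene-poor stretches. Inside gene spans lay 52.3% of the 4S-A-only regions, against 54.1% of the others, and the genes that held them had a median length of 114 kb, against 69.7 kb. Beyond 100 kb from any protein-coding gene lay 923 (11.2%, interval 10.5 to 11.9%), against 5.01% of the others, and this share was the higher in 10 of 10 strength deciles. Of the 467 regions absent from both 4S-A libraries alone, 10.1% (interval 7.49 to 13.2%) also lay that far out, so this position was not particular to the 4S-A-only regions either. By length of the nearest gene, the 4S-A-only share of regions was 7.24% for genes under 10 kb, 8.60% from 30 to 100 kb, 16.6% from 300 to 1000 kb and 24.3% from 1000 kb upward. It was 19.5% where no gene lay within 100 kb.

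The strongest 4S-A-only regions, which by the rule had no KO or FL peak, ranked high in both 4S-A lists. Such regions were rare. Of 8817 regions at or above percentile 90 in both 4S-A libraries, 9 (0.102%) were 4S-A-only. The strongest of all lay 29.0 kb from Ppp1r14c, which encodes an inhibitor of protein phosphatase 1, at chr10:3336697-3337366 on mm10. It stood at percentile 96.7 in 4S-A 1 and 95.2 in 4S-A 2, with fold enrichments of 11.9 and 12.0, and the nearest KO or FL peak was 2316 bp away. A region 4009 bp from the carboxylesterase gene Ces1f (chr8:93251869-93252480) followed at 95.7 and 93.6, with the nearest KO or FL peak 53732 bp away. The next strongest regions included 3 inside genes of axon guidance receptors or ligands. In Plxna4, a semaphorin receptor, it stood at 94.4 in 4S-A 1 and 92.9 in 4S-A 2; in Sema6a, a transmembrane semaphorin, at 92.5 and 94.4; and in Ephb1, an ephrin receptor, at 91.8 and 93.5. A region 16.3 kb from Il10, which encodes an anti-inflammatory cytokine, reached 91.7 and 92.1, with a KO or FL peak 2935 bp away. The 20 strongest also included regions inside Dpp4, Hydin and Spock1 and regions 2919 bp from Olfr1254 and 31775 bp from Etaa1, with mean percentiles of 88.1 or more. Another 9 lay over 100 kb from any protein-coding gene, at 108153 to 404307 bp from the nearest, and are not assigned to a gene. None of these 20 was at a gene end, and 6 lay inside a gene.

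Many genes had several 4S-A-only regions. Within 100 kb of a protein-coding gene lay 7307 of the regions, nearest to 4248 genes, and 2684 genes had a single one. At least 3 regions were nearest to each of 668 genes, which together took 2831 regions (34.4%), at least 5 to 177 genes and at least 10 to 18 genes. The median gene length was 48.6 kb over the 4248 genes and 495 kb over the 18, against 17.3 kb over all protein-coding genes in the table. A long gene can be nearest to more regions of any class. No such lengths are given here for genes with as many other regions, so the contrast is not particular to this class. Of the 668 genes, 113 had over 50% of their 4S-A-held regions in the 4S-A-only class.

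Rora, which encodes a nuclear receptor that acts in circadian and lymphoid regulation, had the most. Of the 43 regions nearest to Rora in both 4S-A libraries, 20 were 4S-A-only, 18 of them inside the gene, with strengths of 9.25 to 56.9. In all, Rora had 51 and 46 regions in 4S-A 1 and 4S-A 2, against 6, 14 and 23 in KO 1 to 3 and 8, 10 and 19 in FL 1 to 3. Counts by library, here and for the genes and groups below, include the regions that the rule chose. A higher count in 4S-A therefore follows in part from the selection. Over all merged regions, 4S-A 1 and 4S-A 2 held 101518 and 91253, against 90499 in KO 3 and 89572 in FL 3. Among the KO and FL libraries, KO 3 and FL 3, with the longer lists, had the most Rora regions.

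Col6a3, Col25a1 and Tenm4 followed with 15 each. Col6a3, which encodes a chain of the matrix collagen VI, had 15 4S-A-only regions among 19, of which 3 lay inside the gene. It had 20 and 20 regions in the 4S-A libraries, against 1, 1 and 3 in KO 1 to 3 and 3, 1 and 3 in FL 1 to 3. Its strongest, 13.9 kb from the gene at chr1:90857605-90858278, stood at percentile 81.2 in 4S-A 1 and 82.1 in 4S-A 2. Col25a1, a transmembrane collagen of neurons, had 15 of 26, with 34 and 29 regions in 4S-A, against 3, 3 and 6 in KO and 3, 6 and 8 in FL. Its strongest, inside the gene at chr3:130218205-130218687, stood at 81.4 and 84.1.

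Among the other leading genes, B3galt1, a galactosyltransferase of glycan chains, had 13 4S-A-only regions among 14, with 19 and 18 regions in 4S-A, against 0, 0 and 1 in KO and 0, 1 and 0 in FL. Lhfp, a tetraspan membrane protein, had 14 of 20, with 25 and 21 regions in 4S-A, against 1, 1 and 3 in KO and 2, 2 and 6 in FL. Tenm4, a teneurin of neuronal adhesion, had 15 of 37, with 47 and 40 in 4S-A, against 5, 14 and 32 in KO and 12, 13 and 12 in FL. For Tenm4 the KO 3 library came near to the 4S-A libraries. Fam155a, a partner of the sodium leak channel, had 13 of 27; Magi1, a scaffold of cell junctions, 11 of 34; and Pde11a, a cyclic nucleotide phosphodiesterase, 11 of 30. Wwox, a long gene for an oxidoreductase, had 13 of 60, with 72 and 63 regions in 4S-A, against 37, 43 and 42 in KO and 33, 32 and 49 in FL.

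At some genes every region of both 4S-A libraries was 4S-A-only. This held for 18 of the 668 genes with at least 3 4S-A-only regions, and the median share over the 668 was 27.3%. The ones named here have at least 5 and were picked out after their values were seen. Ppp1r14c had 8 of 8, with 14 and 9 regions in 4S-A, against 0, 0 and 0 in KO and 0, 1 and 1 in FL. Ankfn1 had 8 of 8 and Tafa1, a secreted chemokine-like protein of the brain, 7 of 7. Ces1h, a carboxylesterase, had 5 of 5. No KO or FL library held a region nearest to Ces1h, against 5 and 6 regions in 4S-A. Ces1 genes are related members of one family, as are the Serpina1 genes named below. How alike the copies are was not examined, and where short reads were placed among them is uncertain.

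Dek itself had 1 4S-A-only region among 2, inside the gene at chr13:47096681-47097135, at percentiles 35.0 and 33.5. Tek, which encodes the TIE2 receptor of endothelium and stem cells, had 4 of 4, all low, with strengths of 0.651 to 18.6. Of these 4, 2 were at a gene end of Tek, and no KO or FL library listed a Tek region, KO 3 with its Tie2-Cre included.

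**Figure D3:**
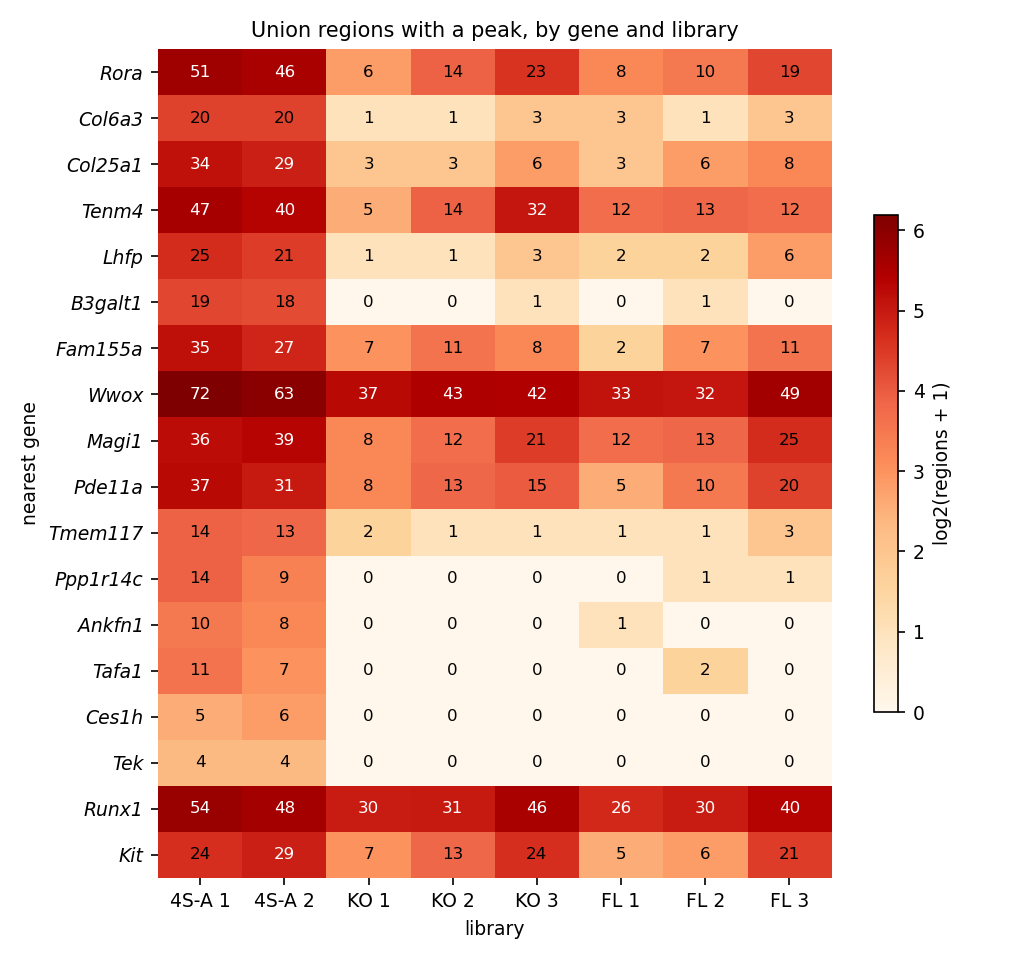
Number of merged regions with a peak in each library (columns, 4S-A, KO, FL) nearest to each gene (rows), with colour on the log2(regions + 1) scale. B3galt1 has 19 and 18 regions in the 4S-A libraries and at most 1 in any KO or FL library, while Runx1 has 54 and 48 in 4S-A, 30 to 46 in KO and 26 to 40 in FL.

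The regions clustered along the chromosomes. Groups of at least 3 4S-A-only regions with gaps of at most 50 kb numbered 669 and held 2686 regions (32.6%, interval 31.6 to 33.7%), with 158 groups of 5 or more and 10 of 10 or more. The median group spanned 49.6 kb. The share in groups changed with the number of regions. It was 14.2% of 3261 regions when lists were cut to equal length, and 52.4% of 16163 regions without 4S-A 2. No such share was computed for another class of regions, and the interval treats regions of one group as separate draws. Strength was a median of 30.1 inside groups and 25.9 outside. Going along a chromosome over the regions of both 4S-A libraries, the next region was 4S-A-only in 22.0% of cases after a 4S-A-only region, against 8.43% after any other. This held at each distance: 23.5% against 7.99% when the next region was under 5 kb away, and 26.2% against 12.8% at 50 to 200 kb.

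The largest group, at chr18:77368885-77573172, ran over Loxhd1, a gene of the hair cells of the inner ear, and Rnf165, a ubiquitin ligase. It held 17 4S-A-only regions among 23, with 28 and 26 regions in 4S-A, against 0, 1 and 6 in KO and 0, 4 and 3 in FL. The group at Ankfn1 and Nog, a BMP antagonist (chr11:89228089-89474475), held 14 of 20, and that at Col6a3 and Mlph (chr1:90801121-90945480) also 14 of 20. The group at Cyct and Pde11a held 13 of 22, and the one inside Rora 13 of 19. A group near Fam20a and Wipi1 (chr11:109609332-109853974) also held 13, but among 33, with 37 and 36 regions in 4S-A, against 9, 14 and 20 in KO and 12, 9 and 20 in FL. In 2 smaller groups, picked out after their values were seen, no KO or FL library held any region. They were inside Tmem117 (chr15:94665893-94807226), with 10 of 10, and in a stretch over 100 kb from any protein-coding gene (chr7:73113220-73224416), with 9 of 9. A group at Serpina1a, Serpina1c and Serpina1e, copies of the gene for the liver protease inhibitor alpha-1 antitrypsin, held 9 of 10, with 10 and 10 regions in 4S-A, against 0, 0 and 1 in KO and none in FL.

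No chromosome lacked them. Their share of the regions of both 4S-A libraries was lowest on chromosome 17 (7.58%, interval 6.75 to 8.48%) and highest on chromosome 18 (12.9%, interval 11.6 to 14.3%), with 12.0% on X. Of 1706 windows of 1 Mb with at least 10 regions, 1574 held at least one, the median share was 8.82%, and 13 windows exceeded 50%. The highest, 81.8%, was the window over B3galt1 on chromosome 2, followed by 65.0% over Spock1 on chromosome 13 and 61.9% over Sox6 on chromosome 7.

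**Figure D4:**
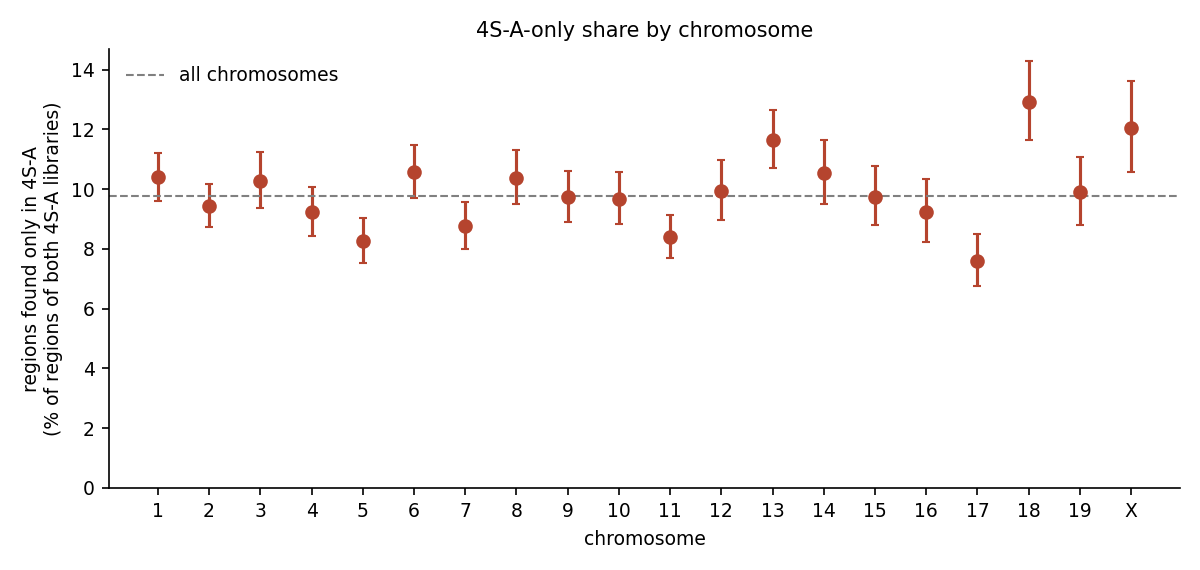
Percent of the regions of both 4S-A libraries that are 4S-A-only (y) on each chromosome (x), with 95% Clopper-Pearson intervals, and the 9.75% of all chromosomes as a dashed line. The intervals of chromosomes 18, X and 13 lie above the line and those of 17, 5, 11 and 7 below it.

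The gene lists group the nearest genes by role. They were written with earlier results of these data known, so a list that stands apart is a description and no independent support. Over 26 lists (650 of 653 entries matched), the 4S-A-only share of a list's regions had an interval above 9.75% in 3 lists and below it in 2. Among 40 neuronal adhesion and synapse genes, 55 of 179 regions were 4S-A-only (30.7%, interval 24.1 to 38.0%), in 14 genes. Tenm4 gave 15 of the 55 and the share without it was 28.2%. Others were Lrp1b, an endocytic receptor, with 4 of 5, and Robo2, a receptor for SLIT, with 4 of 4. Robo2, which is also in the axon guidance list, had 6 and 4 regions in 4S-A and none in KO or FL libraries. The median strength of the 4S-A-only regions of the list was 36.3, against 27.2 over all 4S-A-only regions, and the median length of its genes was 1098 kb, in the length band where the share over all genes was itself 24.3%.

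Among 35 collagen and matrix genes, 70 of 237 regions were 4S-A-only (29.5%, interval 23.8 to 35.8%), in 21 genes. Col6a3 and Col25a1 gave 30 of the 70, and without them the share was 20.8% (40 of 192). Tnc, which encodes the matrix protein tenascin C, had 6 of 11, one of them over the promoter printed above, and 14 and 11 regions in 4S-A, against 5, 9 and 7 in KO and 3, 4 and 7 in FL. Col24a1, a fibrillar collagen, had 4 of 4, with 6 and 4 regions in 4S-A, against 0, 0 and 0 in KO and 0, 1 and 0 in FL. Col4a1, a basement membrane collagen, was the opposite case, with 1 of 20 and similar numbers of regions in 4S-A (26 and 21), KO 2 and KO 3 (25 and 26) and FL 3 (26). Among 45 axon guidance genes, 44 of 284 were 4S-A-only (15.5%, interval 11.5 to 20.2%), in 19 genes. Sema6a had 6 of 9, Slit3, a secreted ligand of ROBO receptors, 6 of 11 and Ephb1 4 of 9, and without Sema6a and Slit3 the share was 12.1% (interval 8.44 to 16.7%), which includes 9.75%.

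**Figure D5:**
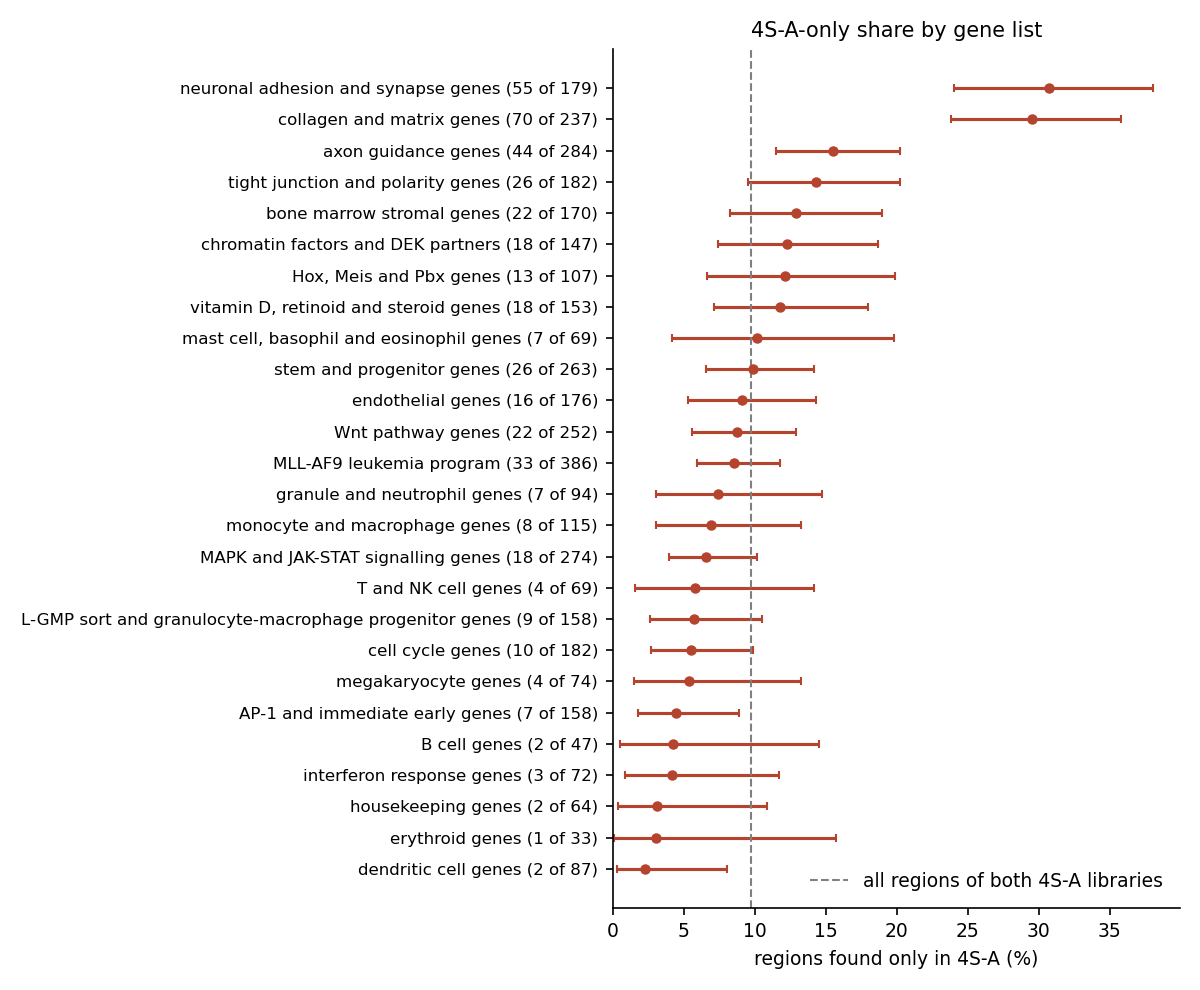
Percent of a list's regions of both 4S-A libraries that are 4S-A-only (x) for 26 gene lists (y, with the numbers of regions), with 95% Clopper-Pearson intervals and the 9.75% of all regions as a dashed line. Neuronal adhesion, collagen and axon guidance lists lie above the line, and AP-1 and dendritic cell lists below it. The lists were written with earlier results of these data known.

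Most blood and leukemia lists had intervals that included 9.75%. Over all genes the share changed with gene length, at 7.24% under 10 kb and 6.98% from 10 to 30 kb. Median gene length was 5.9 kb in the Hox, Meis and Pbx list and 12.3 kb in the L-GMP list. It was 3.75 kb in the AP-1 list and 11.1 kb in the dendritic cell list, but 69.7 kb in the MLL-AF9 list. In the MLL-AF9 leukemia program, 33 of 386 regions were 4S-A-only (8.55%), among Hox, Meis and Pbx genes 13 of 107 (12.1%, interval 6.63 to 19.9%), and among stem and progenitor genes 26 of 263 (9.89%). Meis1, a TALE homeodomain cofactor of HOXA9, had 4 of 23, all low in rank with a strongest value of 20.7. Zeb2, a zinc finger repressor, had 6 of 25 with a strongest value of 75.7, and Runx1, a core regulator of blood stem cells, 6 of 45 with a strongest value of 47.5. Kit, the stem cell factor receptor, had 3 of 23 with one at 68.7 inside the gene. Irf8, a regulator of monocyte fate, had 3 of 26 with one at 85.9, 22.6 kb away at chr8:120779103-120779500, and a KO or FL peak lay 887 bp from it. Genes of the L-GMP sort and of granulocyte-macrophage progenitors had 9 of 158 (5.70%), monocyte and macrophage genes 8 of 115 (6.96%), and granule and neutrophil genes 7 of 94 (7.45%). AP-1 and immediate early genes had 7 of 158 (4.43%, interval 1.80 to 8.92%) and dendritic cell genes 2 of 87 (2.30%, interval 0.280 to 8.06%). Both intervals lie below 9.75% but include the share of the length band that holds the list's median.

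Lists of other cell types and pathways did not stand apart by their intervals. Endothelial genes had 16 of 176 (9.09%) and bone marrow stromal genes 22 of 170 (12.9%). In the stromal list Lepr, the leptin receptor of marrow stroma, had 3 of 4 with one at 70.7, and Cxcl12, a chemokine of the niche, had 4 of 14. Tight junction and polarity genes had 26 of 182 (14.3%, interval 9.55 to 20.2%), of which Magi1 gave 11. Cell cycle genes had 10 of 182 (5.49%), and Mcm3, a subunit of the replicative helicase, had 5 of its 7, the strongest at 78.2 and 9269 bp away. Chromatin factors and DEK partners had 18 of 147 (12.2%), with Ezh2, the methyltransferase of Polycomb complex PRC2, at 3 of 6 and Eed, its partner, at 3 of 13. Wnt pathway genes had 22 of 252 (8.73%), MAPK and JAK-STAT signalling genes 18 of 274 (6.57%), vitamin D, retinoid and steroid genes 18 of 153 (11.8%), and mast cell, basophil and eosinophil genes 7 of 69 (10.1%). Interferon response genes had 3 of 72, T and NK cell genes 4 of 69, megakaryocyte genes 4 of 74, B cell genes 2 of 47, housekeeping genes 2 of 64 and erythroid genes 1 of 33.

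The rule was repeated with every list cut to its 51510 strongest peaks, the length of the shortest list (FL 1). Of 46185 regions then held by both 4S-A libraries, 3261 (7.06%, interval 6.83 to 7.30%) were in no KO or FL list. Of the 3261, 1267 (38.9%) overlapped a 4S-A-only region of the full lists, which is 15.4% of the 8230. The other 1994 (61.1%) had a KO or FL peak in the full lists, below the length limit. Cyp2r1, a vitamin D hydroxylase, held the strongest 4S-A-only region of the cut lists, and KO 2 and KO 3 listed that place in full.

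With equal lengths the class looked much the same in position. Its gene-end share was 3.56% against 24.2% of the other regions, 51.1% lay inside genes and 12.9% lay beyond 100 kb of a gene, against 4.38%. Its median strength was 26.5 against 57.1. Grouping was sparser, with 14.2% of the regions in groups of 3 or more, 132 groups and a largest group of 7, and 165 genes had at least 3. In the cut lists Col6a3 had 7 of 8 regions in the class, Loxhd1 6 of 6, B3galt1 5 of 5, Ppp1r14c 4 of 4 and Hydin 6 of 7, but Rora had 3 of 17 and Tenm4 3 of 10. Ncald, a neuronal calcium sensor, had the most, with 8 of 16. The share was 19.2% (19 of 99) in collagen and matrix genes and 21.7% (15 of 69) in neuronal adhesion and synapse genes. It was 14.9% (20 of 134) in axon guidance genes, against 7.06% over all regions. Col6a3 gave 7 and Col25a1 6 of the 19 collagen and matrix regions, and Tenm4 gave 3 of the 15. No shares without these genes or by gene length are given here for the cut lists.

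The number of regions depended on single libraries. Without 4S-A 2 it was 16163, and without 4S-A 1 12075. Leaving out KO 3 gave 11667 and leaving out FL 3 gave 10503, while leaving out any one library of the Mx1-Cre set changed it less. The number of genes with at least 3 regions was 1703 without 4S-A 2, 1132 without 4S-A 1 and 1099 without KO 3. With the Tie2-Cre set alone, whose lists were closest in length, 10.8% of the regions of both 4S-A libraries were absent from KO 3 and FL 3, 4.69% of these lay at a gene end, and the collagen and neuronal list shares were 31.2% and 30.7%.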

How the data were processed

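ATAC-seq peak lists of 8 L-GMP libraries were used, 1 per library. The tools named per the submitters' processing notes are Bowtie2 2.2.9, Trim Galore 0.4.4, MACS2, featureCounts and Picard, with the mm10 build; their roles and parameters are not given in the sources used here. For each peak the authors deposited a score, a fold enrichment over local background, the −log10 p, the −log10 q and a summit. None is scaled between libraries, so ranks were taken within a list. Read depth is unknown.

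Lists were merged by 1 bp of overlap. Gene spans (21631 protein-coding genes) and promoters came from RefSeq tables of GRCm38.p6, the assembly also named mm10. A region is at a gene end where its summit is at most 1 kb from an end of the span, and it belongs to the nearest gene within 100 kb. Groups join regions across gaps of up to 50 kb. Intervals are exact Clopper-Pearson at 95% and cover counting error only, and regions are not replicates. No test was run, since presence in these lists chose the regions. The rule was checked on simulated lists. Python 3.11.15, pandas 2.3.3, numpy 2.4.6 and scipy 1.17.1 were used.

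Named genes were Dek, Tek, the nearest genes of the 20 strongest regions (printed where within 100 kb), the 10 genes with most regions, genes of the 5 largest groups and up to 3 genes per list. Further genes are given as values beside them, and a gene that the rule selects is not reported here. The members, rule and lists were chosen with earlier results of these data known. Alternatives were equal-length lists, stricter overlaps and gaps, other distances, the Tie2-Cre set alone and each library left out.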

Additional observations from a re-analysis of the deposited data

How the results depend on the processing

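No paired analysis was possible because the results come from no test. Of 96 values under alternatives, 56 stayed within a set limit and 40 moved further. The limit was 1.5 times for counts and the counting interval for shares. For median strength it was the standard deviation of the medians in 4S-A 1 and 4S-A 2. Leaving out 1 library at a time gave 8303 to 16163 4S-A-only regions (highest without 4S-A 2), 9.84 to 15.9% of the regions of both 4S-A libraries, a median strength of 18.4 to 27.6, 4.14 to 4.68% at a gene end, 32.9 to 52.4% in groups, and 679 to 1703 genes with at least 3 regions. Equal-length lists gave 3261 regions, 7.06%, 3.56% at a gene end, 14.2% in groups and 165 genes. Requiring no KO or FL peak within 500 bp gave 8.62% of regions, 3.46% at a gene end and 29.5% in groups. Merging across 200 bp gave 9.44% of regions and 31.3% in groups. The Tie2-Cre set alone gave 10.8% of regions, 4.69% at a gene end and 36.1% in groups. The same set with its 4 lists cut to equal length, added after seeing the data, gave 9.27%, 4.59% and 31.1%. Ranking by fold enrichment gave a median strength of 32.8. A gene end of 500 bp or 2 kb held 2.33% or 7.59% of the regions, and group gaps of 20 kb or 100 kb held 14.8% or 53.1%. Counting only regions inside the gene left 380 genes with at least 3. The causes were not tested.

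The lists show presence, not read counts. Both 4S-A libraries came from the set with the longer lists, and only KO 3 and FL 3 share that set, 1 library each. Nearest genes were assigned by distance and say nothing of regulation. Shares between classes of regions carry no replicate error.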
